A study of Drosophila melanogaster with 8 samples.

Results

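The mitochondrial genome of Drosophila melanogaster was examined gene by gene in mRNA-seq of dissected ring glands, the compound endocrine organ of the larva in which the prothoracic gland makes ecdysone. Its members were all 37 genes that the deposited table places on the mitochondrial genome, of 17558 genes in all, and comprised 13 protein-coding genes, 2 rRNA genes and 22 tRNA genes. Expression was not used to choose them. Each of 8 libraries was made from 80 pooled ring glands of wandering larvae of the last instar, with males and females pooled and standard food, and the genotypes were w[1118], the wild-type control, and kdm5[140], 4 libraries each. Kdm5[140] is a loss-of-function allele of Kdm5, which encodes a demethylase of histone H3 that acts on lysine 4. The mutation is carried by the whole animal and not by the ring gland alone, and the gene is carried in the table under its older name lid. Animals were matched by stage and not by age, so that wild-type larvae were collected about 5 days and Kdm5[140] larvae about 7 days after egg laying, and age and genotype cannot be told apart. Whether both stocks carry the same mitochondrial genome, which is inherited from the mother, is not given in the sources used here.

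The mitochondrial genome encodes core subunits of the respiratory chain complexes I, III and IV and of the ATP synthase, complex V, together with the rRNAs and tRNAs needed to translate them inside the organelle. The remaining subunits are encoded in the nucleus, translated in the cytosol and imported, so that each of these complexes is assembled from products of both genomes, while complex II is wholly nuclear. Mitochondrial RNA is made as long precursors from both strands, the tRNAs that lie between other genes are cut out, and the mRNAs and rRNAs receive A tails, by which poly(A) selection can capture them. In the ring gland, the last steps of ecdysone synthesis take place in mitochondria.

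The libraries held 17131110 to 19494692 counts. Counts of lid were 172, 144, 144 and 155 CPM in wild type against 200.1, 193, 194 and 195 CPM in the Kdm5[140]-labelled libraries, higher in all of the latter (log2 fold change 0.35, edgeR FDR = 0.00437, Benjamini-Hochberg adjusted over all tested genes). The call of lid held in 2 of 8 fits with 1 library left out, with an FDR of 6.14e-04 to 0.0188. A count over the whole gene does not show whether the transcript is intact, and the mutant libraries are therefore called by their label. The summed level of the prothoracic gland markers was 41010.3 to 43949.6 CPM in wild type against 30106 to 39102 CPM in the Kdm5[140]-labelled libraries, highest in replicate 3 of the latter. All 6 matched markers were detected. The members did not move as one: edgeR called 1 of the 6 lower (spok, log2 fold change −0.83, FDR = 3.57e-04) and 2 higher (dib, 0.56, FDR = 0.00440, and sro, 1.01, FDR = 2.46e-04), all 3 being enzymes of ecdysone synthesis. Summed neuron markers were 124 to 179 CPM and 159 to 223 CPM, and fat body markers 811 to 2508 CPM and 1104 to 5708 CPM. All 4 neuron markers had positive log2 fold changes, and edgeR called elav higher (0.39, FDR = 0.00495) and not the other 3. None of the 6 fat body markers was called, with log2 fold changes from −2.62 to 1.47. CPM here and below is the read count of a gene relative to a library size that was corrected by TMM, which sets the bulk of genes level between libraries.

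Mitochondrial transcripts took 6.04, 5.35, 6.11 and 5.09% of all counts in wild-type replicates 1 to 4 and 5.42, 6.05, 6.49 and 5.24% in Kdm5[140]-labelled replicates 1 to 4. The ranges overlapped, with 5.65 ± 0.507% and 5.80 ± 0.577% (SD, n = 4 each). The spread lay between libraries and not in counting, since the 95% Wilson interval of the lowest share was 5.08 to 5.10%. Most of these counts came from 1 gene: the 2 rRNA genes held 61.4 to 66.7% of the mitochondrial counts, nearly all of it mt:lrRNA. The mRNAs held 33.2 to 38.6%, and the tRNA genes 0.0166 to 0.0373%. In bulk libraries, fewer mitochondria-rich cells, fewer mitochondrial genomes per cell and less RNA per genome cannot be told apart.

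**Figure D1:**
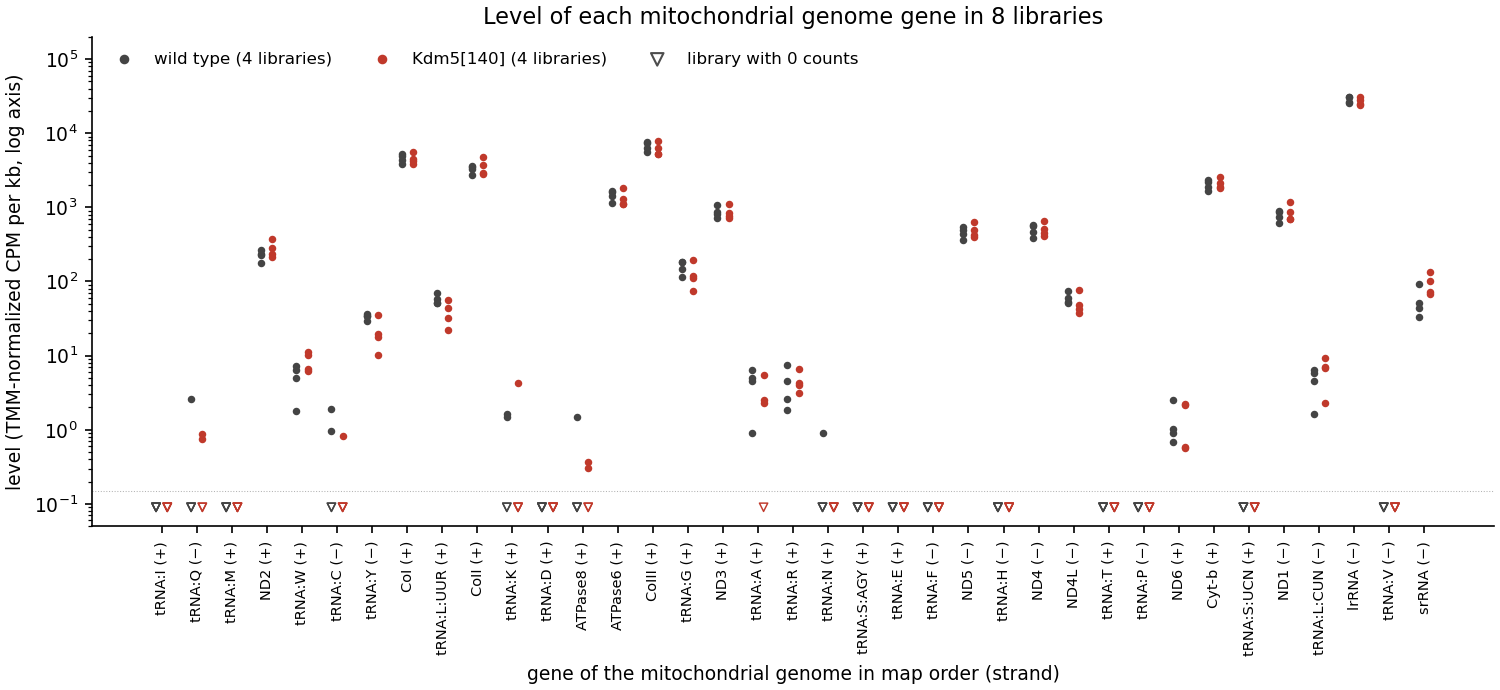
Level of each of the 37 mitochondrial genome genes in TMM-normalized CPM per kb (log axis), in map order with the strand in parentheses. Each point is 1 library, 4 wild type in grey and 4 Kdm5[140]-labelled in red, and open triangles mark libraries with 0 counts, whose place on the axis is arbitrary. mt:lrRNA stood highest in every library at 23955 to 31062 CPM per kb, the 2 genotypes overlapped in every gene with counts in both, and 11 tRNA genes had 0 counts in every library.

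mt:lrRNA, the RNA of the large subunit of the mitochondrial ribosome, was the most abundant gene of the whole table by CPM in all 8 libraries. It measured 41158, 35155, 40960.5 and 34257 CPM in wild-type replicates 1 to 4 against 33325, 37107, 41115 and 31740.4 CPM in the Kdm5[140]-labelled replicates 1 to 4. The lowest value was that of a Kdm5[140]-labelled library and the highest that of a wild-type one, with the other libraries interleaved. The log2 fold change was −0.08 (95% interval −0.32 to 0.16, edgeR FDR = 0.602). mt:srRNA, the RNA of the small ribosomal subunit, measured 39.9, 34.3, 73.0 and 26.3 CPM in wild-type replicates 1 to 4 against 52.8, 80.7, 105 and 56.0 CPM in the Kdm5[140]-labelled replicates 1 to 4. The genotypes overlapped because wild-type replicate 3 lay above Kdm5[140]-labelled replicates 1 and 4, and the log2 fold change of 0.76 (95% interval −0.09 to 1.62, edgeR FDR = 0.158) did not pass the threshold of an FDR under 0.01. mt:srRNA had the smallest p-value among the mitochondrial genes (edgeR, unadjusted p = 0.0737). With 1 library left out, mt:srRNA ran from 0.54 without Kdm5[140]-labelled replicate 3 (edgeR FDR = 0.289) to 1.13 without wild-type replicate 3 (edgeR FDR = 0.0272) on the log2 scale. Although both rRNAs lie on the minus strand with only mt:tRNA:V between them, mt:lrRNA had 635 times the counts of mt:srRNA over all libraries. The ratio of mt:srRNA to mt:lrRNA counts was 0.0970, 0.0976, 0.178 and 0.0768% in wild type and 0.158, 0.217, 0.255 and 0.176% in the Kdm5[140]-labelled libraries, again overlapping through wild-type replicate 3.

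The 3 mitochondrial subunits of complex IV, cytochrome c oxidase, which passes electrons to oxygen, were the most abundant mRNAs per length. mt:CoI, which carries the catalytic heme-copper centre, measured 8059, 6641, 7664 and 5940.4 CPM in wild-type replicates 1 to 4 against 6404, 6887, 8442 and 5957 CPM in the Kdm5[140]-labelled replicates 1 to 4. Its log2 fold change was −0.03 (95% interval −0.32 to 0.26, edgeR FDR = 0.878). mt:CoII, which takes electrons from cytochrome c, measured 2440.2, 2256, 2381 and 1888 CPM in wild-type replicates 1 to 4 against 1919.7, 2532, 3276 and 1965 CPM in the Kdm5[140]-labelled replicates 1 to 4. Kdm5[140]-labelled replicate 3 was highest and wild-type replicate 4 lowest. The log2 fold change of mt:CoII was 0.11 (95% interval −0.27 to 0.50, edgeR FDR = 0.652). mt:CoIII, the third core subunit, measured 5956, 4921, 5787 and 4393 CPM in wild-type replicates 1 to 4 against 4169, 4938, 6176 and 4142 CPM in the Kdm5[140]-labelled replicates 1 to 4. The Kdm5[140]-labelled replicates 1 and 4 were the lowest libraries and replicate 3 the highest. The log2 fold change of mt:CoIII was −0.12 (95% interval −0.45 to 0.22, edgeR FDR = 0.585). None of the 3 passed the test, and in each the extremes of the Kdm5[140]-labelled libraries lay farther apart than those of wild type.

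mt:Cyt-b, the only mitochondrial subunit of complex III and the one that binds its hemes b, measured 2666, 2142, 2482 and 1888 CPM in wild-type replicates 1 to 4 against 2165, 2455, 2955 and 2046 CPM in the Kdm5[140]-labelled replicates 1 to 4. The libraries interleaved, and the log2 fold change was 0.07 (95% interval −0.25 to 0.38, edgeR FDR = 0.743). mt:ATPase6, a subunit of the proton channel of the ATP synthase, measured 1137, 949, 1073 and 773 CPM in wild-type replicates 1 to 4 against 751, 864, 1222 and 760.5 CPM in the Kdm5[140]-labelled replicates 1 to 4. Its 3 lowest libraries included Kdm5[140]-labelled replicates 1 and 4, its highest was replicate 3 of the same genotype, and the log2 fold change was −0.13 (95% interval −0.53 to 0.27, edgeR FDR = 0.614).

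The 7 mitochondrial subunits of complex I, the NADH dehydrogenase, belong to its membrane arm, and they were transcribed from both strands, with mt:ND2, mt:ND3 and mt:ND6 on the plus strand and mt:ND1, mt:ND4, mt:ND4L and mt:ND5 on the minus strand. mt:ND5 measured 792 ± 128 CPM in wild type against 835 ± 179.8 CPM in the Kdm5[140]-labelled libraries (SD, n = 4 each), with a log2 fold change of 0.08 (95% interval −0.29 to 0.44, edgeR FDR = 0.755). mt:ND1 measured 737 ± 122 CPM in wild type against 808 ± 208 CPM in the Kdm5[140]-labelled libraries, with a log2 fold change of 0.13 (95% interval −0.29 to 0.55, edgeR FDR = 0.625). mt:ND4 measured 667 ± 117 CPM in wild type against 677 ± 137 CPM in the Kdm5[140]-labelled libraries, and its log2 fold change of 0.02 (95% interval −0.35 to 0.39, edgeR FDR = 0.942) was close to 0. mt:ND3 measured 306 ± 51.1 CPM in wild type against 303 ± 59.7 CPM in the Kdm5[140]-labelled libraries, with a log2 fold change of −0.01 (95% interval −0.36 to 0.33, edgeR FDR = 0.955). In all 4 of these genes Kdm5[140]-labelled replicate 3 was the highest of the 8 libraries, and wild-type replicate 4 was the lowest.

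mt:ND2 had the largest positive log2 fold change of the mRNAs. It measured 276, 234, 238 and 184 CPM in wild-type replicates 1 to 4 against 243, 286, 383 and 217 CPM in the Kdm5[140]-labelled replicates 1 to 4, so that Kdm5[140]-labelled replicates 2 and 3 were the 2 highest libraries and the other 2 lay within the wild-type range. The log2 fold change was 0.27 (95% interval −0.15 to 0.70, edgeR FDR = 0.295) and fell to 0.09 (edgeR FDR = 0.662) without Kdm5[140]-labelled replicate 3. mt:ND4L, which encodes the smallest of these subunits, had the most negative one. It measured 21.9, 15.1, 17.3 and 15.3 CPM in wild-type replicates 1 to 4 against 14.1, 10.9, 22.5 and 12.3 CPM in the Kdm5[140]-labelled replicates 1 to 4, from 197 to 399 counts, and the log2 fold change was −0.22 (95% interval −0.74 to 0.30, edgeR FDR = 0.496). Here 3 of the 4 Kdm5[140]-labelled libraries were the lowest of all, and replicate 3 was the highest. Without that library the log2 fold change of mt:ND4L was −0.49 (edgeR FDR = 0.0483), still short of the threshold.

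The 2 remaining protein-coding genes were close to absent from the counts and were not tested. mt:ND6, another membrane-arm subunit of complex I, had 24, 6, 9 and 9 counts in wild type and 6, 21, 19 and 6 counts in the Kdm5[140]-labelled libraries. mt:ATPase8, the second mitochondrial subunit of the ATP synthase, had 6 counts over the 8 libraries, of which 4 fell in wild-type replicate 2. Both genes lie next to abundant ones on the same strand. mt:ATPase8 spans positions 3907 to 4068 of the mitochondrial genome as the deposited table numbers it, shares 7 bases with mt:ATPase6 (4062 to 4736), and is 162 bases long, little more than a 150-base read. mt:ATPase6 had 22578 times its counts, although the coding sequences of both are read from a single mRNA. mt:ND6 ends 3 bases before mt:Cyt-b begins, and mt:Cyt-b had 3395 times its counts. mt:ND4L shares 1 base with mt:ND4, with which it is also carried on 1 mRNA, and mt:ND4 had 41.6 times its counts, or 9.04 times per kb. How the counting treated reads that touch more than 1 gene is not given in the sources used here, and its part in these ratios was not tested. In the nuclear genome, mtTFB1, which shares bases with crim and Ccdc56, had 0 counts in all libraries. CoVIb, a nuclear subunit of complex IV, shares bases with CG18809 on its own strand and was counted in every library. Its mean was 262 CPM over the wild-type libraries and 181 CPM over the Kdm5[140]-labelled ones. The part of shared bases in the levels of mtTFB1 and CoVIb was not tested.

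The tRNA genes, 61 to 73 bases long and thus shorter than a read, gave 167 to 364 counts per library in all. Of the 22, 11 had 0 counts in every library, where the 3 counts that a count of 0 allows are 0.154 to 0.175 CPM per library. That floor covers counting only and sets no bound on the level of the tRNAs themselves. A tails are described above for mRNAs and rRNAs, and reads that also touch a neighbour may not have been counted. The 5 highest were mt:tRNA:G, mt:tRNA:L:UUR, mt:tRNA:Y, mt:tRNA:W and mt:tRNA:L:CUN, and only the first 3 passed the filter on low counts. mt:tRNA:G, the glycine tRNA between mt:CoIII and mt:ND3, had 135, 202, 165 and 224 counts in wild type and 94, 140, 210 and 146 counts in the Kdm5[140]-labelled libraries. Its log2 fold change was −0.34 (95% interval −0.97 to 0.30, edgeR FDR = 0.396). mt:tRNA:L:UUR, the leucine tRNA between mt:CoI and mt:CoII, had 62, 78, 66 and 65 counts in wild type and 29, 53, 61 and 43 counts in the Kdm5[140]-labelled libraries. Its log2 fold change was −0.59 (95% interval −1.27 to 0.10, edgeR FDR = 0.174). mt:tRNA:Y, the tyrosine tRNA just before mt:CoI on the opposite strand, had 41, 32, 39 and 46 counts in wild type and 13, 21, 39 and 26 counts in the Kdm5[140]-labelled libraries. Its log2 fold change was −0.70 (95% interval −1.55 to 0.15, edgeR FDR = 0.191). All 3 had negative values and none passed the test, and in all 3 Kdm5[140]-labelled replicate 1 was the lowest library. With 1 library left out, mt:tRNA:Y ran from −1.09 without Kdm5[140]-labelled replicate 3 (edgeR FDR = 0.0420) to −0.47 without replicate 1 (edgeR FDR = 0.379) on the log2 scale. Between the same 2 fits mt:tRNA:G ran from −0.63 to −0.15 and mt:tRNA:L:UUR from −0.81 to −0.40. mt:tRNA:W had 66 counts and mt:tRNA:L:CUN 51 over all libraries.

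Divided by gene length, the mean levels over all 8 libraries spanned from 27813 CPM per kb for mt:lrRNA to 0.269 CPM per kb for mt:ATPase8. After mt:lrRNA came mt:CoIII at 6413, mt:CoI at 4557, mt:CoII at 3405, mt:Cyt-b at 2067 and mt:ATPase6 at 1394 CPM per kb, and each of these lay above the next in 8 of 8 libraries. mt:ND3 at 860.3 and mt:ND1 at 823 CPM per kb could not be ordered, since mt:ND3 was the higher in 5 of 8 libraries. mt:ND4 at 502, mt:ND5 at 472 and mt:ND2 at 251 CPM per kb followed in every library. mt:srRNA at 74.4 and mt:ND4L at 55.6 CPM per kb again changed places between libraries, with mt:srRNA above in 5 of 8, and mt:ND6 stood at 1.33 CPM per kb. By complex, the 3 subunits of complex IV stood first, then mt:Cyt-b of complex III and mt:ATPase6 of complex V, then the complex I subunits, while mt:ATPase8, the other subunit of complex V, stood last. The 9 protein-coding genes of the plus strand took 88.2 to 89.8% of the mitochondrial mRNA counts and the 4 of the minus strand the rest.

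To ask whether loss of Kdm5 goes with a change in mitochondrial genome expression, all genes were compared between genotypes in 1 edgeR quasi-likelihood fit. Of the 37 genes, 16 passed the filter on low counts (11 mRNAs, both rRNAs and 3 tRNAs). None of the 16 was called lower or higher at an FDR under 0.01 by edgeR, against 17.5% of the 9317 genes tested. None of the 16 had an unadjusted edgeR p under 0.05, against 42.5% of all tested genes, and none had non-overlapping genotypes in CPM, against 33.2%. DESeq2 likewise called none of the 16 and gave none an unadjusted p under 0.05, against 21.1% called of the genes with an adjusted p and 29.7% of those with an unadjusted p. limma-voom called none (against 17.0% of all tested genes, 9.46% lower and 7.58% higher) and gave 3, mt:srRNA, mt:tRNA:L:UUR and mt:tRNA:Y, an unadjusted p under 0.05, against 42.3% of all tested genes. The edgeR log2 fold changes were positive in 7 and negative in 9 of the 16, and all 16 of the 95% intervals included 0.

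The median log2 fold change of the 13 mRNAs and rRNAs tested was 0.02, as was that of all tested genes, since mt:ND4 was the middle gene of both. The 11 mRNAs ranged from −0.22 for mt:ND4L to 0.27 for mt:ND2 on the log2 scale. A p-value over the threshold does not show that the levels are equal. The intervals of mt:lrRNA (−0.32 to 0.16) and mt:CoI (−0.32 to 0.26) were the narrowest, those of mt:srRNA and the tRNAs reached beyond 1 log2 unit or close to it, and the median width over the 13 was 0.74. The replicates of these genes scattered more than those of most genes, with a median biological coefficient of variation of 17.1% for the 13 against 14.51% for all tested genes. Scaled by library totals alone, without TMM, the median of all tested genes moved up by 0.10 to 0.12 and that of the 13 to 0.11, and mt:CoI, mt:ND3 and mt:lrRNA, all close to 0, changed sign, still with no call among the 16.

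**Figure D2:**
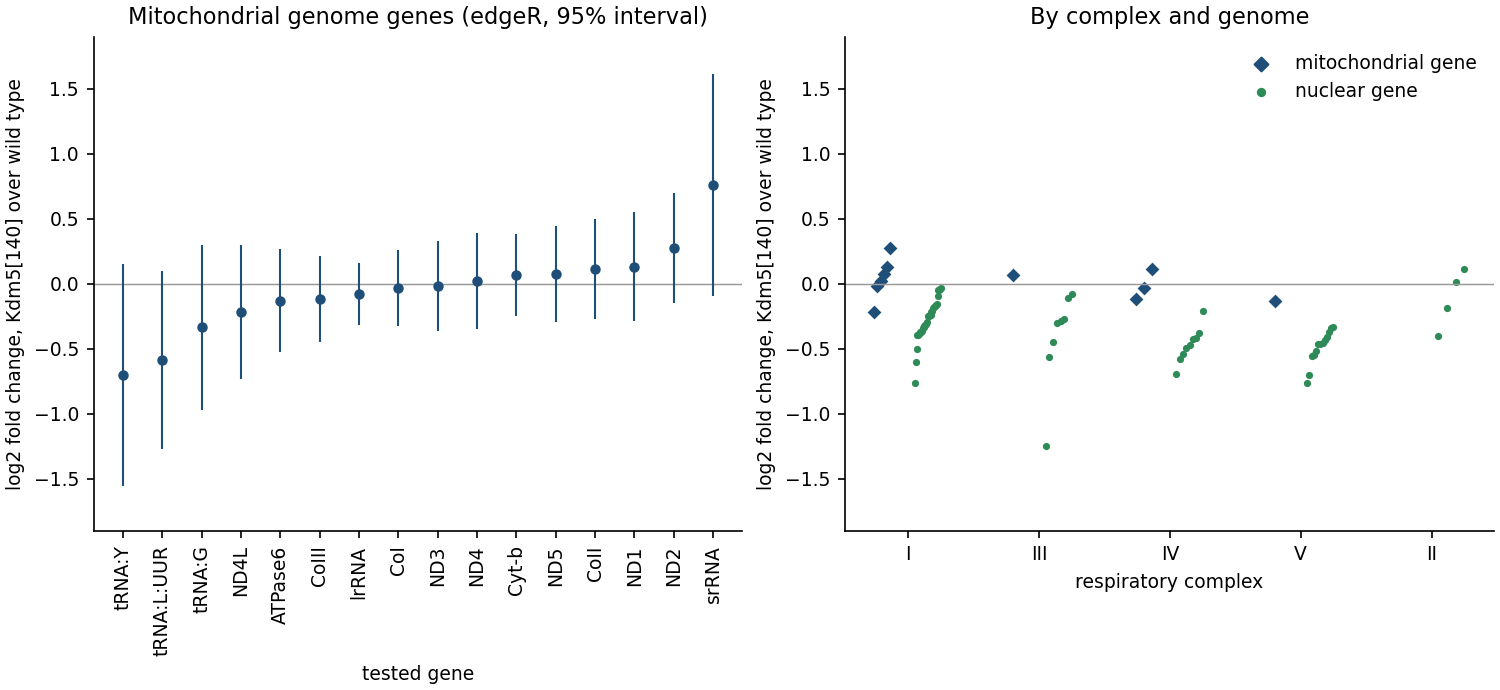
Left, edgeR log2 fold change of Kdm5[140]-labelled over wild-type libraries for the 16 tested mitochondrial genome genes, with 95% intervals (n = 4 each), all of which include 0. Right, the same log2 fold changes by respiratory complex, for mitochondrial genes (blue diamonds) and nuclear-encoded subunits (green points), where all 61 tested nuclear subunits of complexes I, III, IV and V lie below 0 and the mitochondrial genes lie from −0.22 to 0.27.

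The mitochondrial mRNAs moved together between libraries of the same genotype. Their summed level was 23404, 19536, 22448 and 17067 CPM in wild-type replicates 1 to 4 and 17948, 20598, 25913 and 17245 CPM in Kdm5[140]-labelled replicates 1 to 4, so that the highest library of either genotype exceeded the lowest by more than the genotype means differed. Of the 10 mRNAs other than mt:ND4L, mt:ND6 and mt:ATPase8, wild-type replicate 4 was the lowest of its genotype in 10, wild-type replicate 1 the highest in 9, Kdm5[140]-labelled replicate 3 the highest in 10 and Kdm5[140]-labelled replicate 4 the lowest in 8. Centred on the genotype means, Pearson's r over the 8 libraries between pairs of these 10 was 0.759 to 0.995 with a median of 0.969 (45 pairs, which share libraries and scaling). The Kdm5[140]-labelled replicate 3 also had the highest summed prothoracic gland markers and the lowest summed neuron markers of its genotype (39102 and 159 CPM). Its summed salivary gland markers were the highest of all 8 libraries (2588 CPM, against up to 1250 CPM in wild type). Over all 8 libraries, centred in the same way, the summed mitochondrial mRNAs had r = −0.898 with the summed neuron markers, 0.873 with the corpus allatum marker, 0.768 with the prothoracic gland markers and −0.709 with the glia marker. The value was −0.673 for muscle, 0.546 for salivary gland, −0.400 for fat body, −0.327 for corpora cardiaca and −0.245 for hemocyte markers. For the summed nuclear subunits of complexes I, III, IV and V it was 0.533. These values describe 8 points that share libraries, depth and scaling, and the part of cell composition in the spread was not tested. The ratio of mRNA to mt:lrRNA counts ran from 0.498 in wild-type replicate 4 to 0.630 in Kdm5[140]-labelled replicate 3, the libraries with the lowest and the highest mRNA levels. Without Kdm5[140]-labelled replicate 3, the median log2 fold change of the 13 mRNAs and rRNAs was −0.12, and without Kdm5[140]-labelled replicate 4 it was 0.11, with no call in either case.

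**Figure D3:**
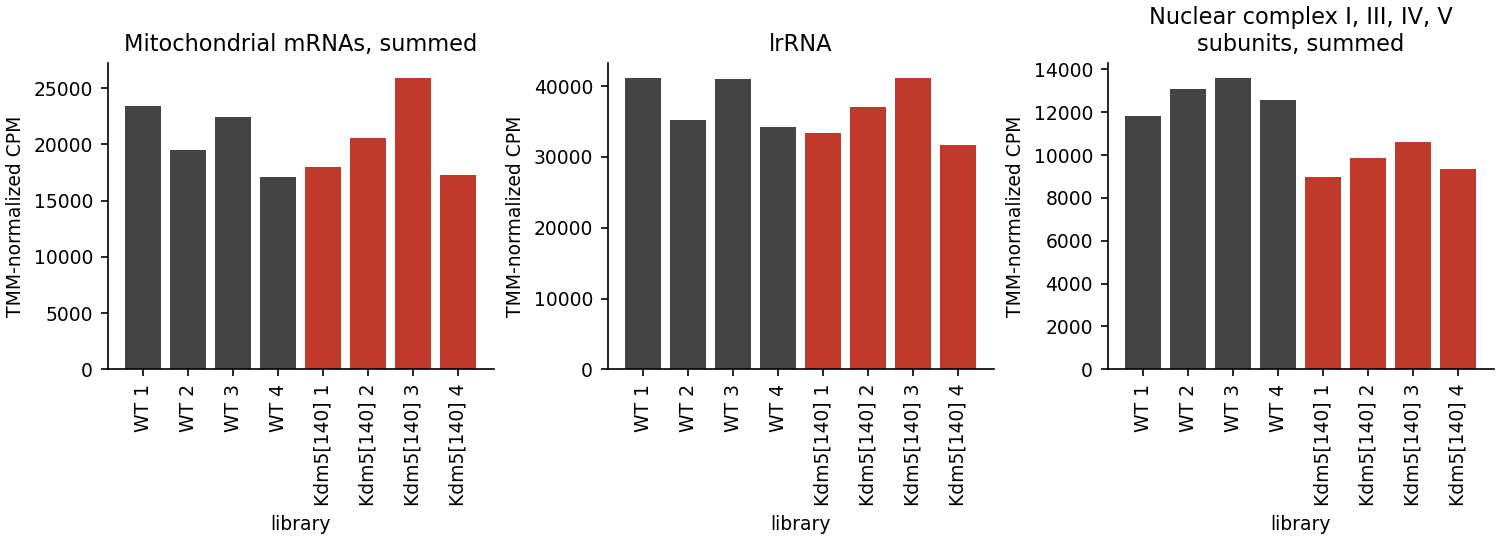
TMM-normalized CPM in each library (bars, axes from 0, wild type in grey and Kdm5[140]-labelled in red) of the summed mitochondrial mRNAs, of mt:lrRNA and of the summed nuclear-encoded subunits of complexes I, III, IV and V. The first 2 panels overlap between genotypes, and in the third the wild-type libraries (11811 to 13604 CPM) all lie above the Kdm5[140]-labelled ones (8994 to 10627 CPM).

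Because the mRNAs varied together, each was also expressed as a share of the mitochondrial mRNA counts of its library, which sets that common movement aside. mt:CoIII took 25.4, 25.2, 25.8 and 25.7% in wild type and 23.2, 24.0, 23.8 and 24.0% in the Kdm5[140]-labelled libraries, lower in all 4 of the latter. mt:ND2 took 1.18, 1.198, 1.06 and 1.08% in wild type and 1.35, 1.39, 1.48 and 1.26% in the Kdm5[140]-labelled libraries, higher in all 4. mt:Cyt-b and mt:ND1 were also higher without overlap, but by the last digits only, with 11.393 against 11.405% for mt:Cyt-b and 3.674 against 3.675% for mt:ND1 between the nearest libraries. The shares of the other mRNAs overlapped, among them mt:CoI with 34.0 to 34.8% in wild type and 32.6 to 35.7% in the Kdm5[140]-labelled libraries. Divided by the same totals, 14.8% of all tested genes had non-overlapping genotypes, 7.66% lower and 7.12% higher. Those genes, nearly all nuclear, take on the spread of these totals when divided by them, while the mitochondrial mRNAs move with the totals. That rate is therefore not a like background for the mRNAs named above. Shares of a total depend on one another, so each was recomputed with an abundant gene left out of the total. Without mt:CoIII in the total only mt:ND2 stayed apart between genotypes, and without mt:CoI mt:ND2, mt:CoIII and mt:ND1 did. The count of mt:ND2 relative to that of mt:CoIII was 4.64, 4.76, 4.12 and 4.18% in wild type and 5.83, 5.80, 6.20 and 5.23% in the Kdm5[140]-labelled libraries.

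These shifts were small and were not called in a further fit, which could not decide on them. In an edgeR fit that scaled each library to its mitochondrial mRNA total, added after the levels had been seen, none of the 16 genes was called at an FDR under 0.01, against 5.86% of all tested genes, 2.79% lower and 3.07% higher. The log2 fold change in that fit was 0.28 for mt:ND2 (95% interval −0.04 to 0.60, edgeR FDR = 0.3002) and −0.10 for mt:CoIII (95% interval −0.36 to 0.15, edgeR FDR = 0.683). Its estimate of spread draws on all genes, into which this scaling brings the spread of the mitochondrial mRNAs. For mt:CoIII the standard error was 0.12, although its shares were 25.5 ± 0.275% in wild type and 23.8 ± 0.367% in the Kdm5[140]-labelled libraries (SD). The absence of a call therefore does not decide on shifts of this size. mt:srRNA was the 1 gene of the 16 with an FDR under 0.05 in the same edgeR fit, against 10.6% of all tested genes. Its log2 fold change relative to the mRNAs was 0.78 (standard error 0.22, edgeR FDR = 0.0292). The minus-strand mRNAs together took 10.2 to 10.9% of the mRNA counts in wild type and 11.0 to 11.8% in the Kdm5[140]-labelled libraries. The difference in means was 0.665 percentage points, and the nearest libraries did not overlap, at 10.93% in wild-type replicate 1 and 11.03% in Kdm5[140]-labelled replicate 4. This strand share depends on that of mt:CoIII, a plus-strand gene in the same total, and was not recomputed without mt:CoIII.

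**Figure D4:**
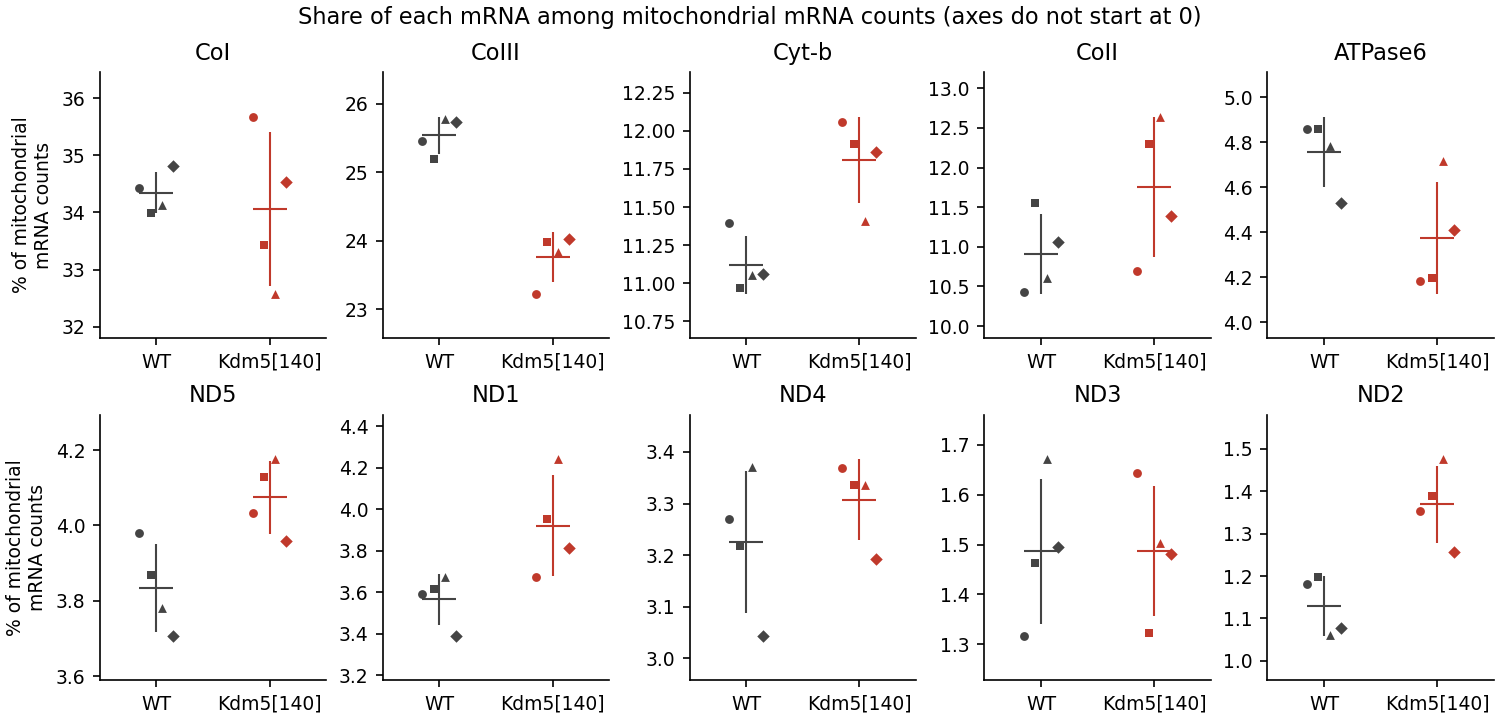
Share of each of the 10 abundant mRNAs among the mitochondrial mRNA counts of a library (%, axes do not start at 0), with 1 point per library (replicates 1 to 4 as circle, square, triangle and diamond) and the mean ± SD as lines (n = 4 each). mt:CoIII lies at 25.2 to 25.8% in wild type and 23.2 to 24.0% in the Kdm5[140]-labelled libraries, and mt:ND2 at 1.06 to 1.198% and 1.26 to 1.48%.

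The nuclear partners of these subunits were set beside them complex by complex. Of 61 tested nuclear subunits of complexes I, III, IV and V, 33 were lower and 0 higher in the Kdm5[140]-labelled libraries at an edgeR FDR under 0.01, against 9.62% lower and 7.91% higher of all tested genes. All 61 had negative log2 fold changes, with a median of −0.36 beside 0.02 for all tested genes. The summed prothoracic gland markers were lower in the same libraries without overlap, although 2 of the 6 markers, dib and sro, were higher, and their part in this difference was not tested. In complex IV, 8 of 9 nuclear subunits were lower, with a median of −0.47, among them cype, a subunit VIc homologue (152 ± 21.2 to 94.0 ± 8.31 CPM, log2 fold change −0.69, edgeR FDR = 0.00100), CoVa (243 ± 22.2 to 163 ± 10.1 CPM, log2 fold change −0.58, edgeR FDR = 5.88e-04) and CoVIb (262 ± 22.4 to 181 ± 23.5 CPM, log2 fold change −0.54, edgeR FDR = 0.00336). The mitochondrial subunits of the same complex had −0.03, 0.11 and −0.12, and none of their 3 intervals reached down to the nuclear median of −0.47. That of mt:CoIII reached −0.45, which lies within the range of the 9 nuclear subunits, −0.69 to −0.21. In complex V, 12 of 13 were lower, with a median of −0.46, among them CG3321 or ATPsynE, a subunit of the membrane part (log2 fold change −0.76, edgeR FDR = 1.12e-04), sun, an epsilon subunit (log2 fold change −0.70, edgeR FDR = 3.99e-04), and ATPsyn-Cf6, a subunit of the stalk (log2 fold change −0.55, edgeR FDR = 9.00e-04), beside −0.13 for mt:ATPase6, whose interval reached −0.53.

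In complex I, 10 of 31 nuclear subunits were lower and the median was −0.25, with CG12400 (ND-B14.5B) at −0.76, CG3621 (ND-B14.5A) at −0.60 and CG12859 (ND-B15) at −0.50 on the log2 scale (edgeR FDR = 2.60e-04, 4.86e-04 and 0.00566). The 6 tested mitochondrial subunits of complex I had −0.22 to 0.27. In complex III, 3 of 8 were lower, with a median of −0.29, namely ox (43.7, 46.4, 59.2 and 43.9 CPM in wild type against 21.2, 18.2, 18.9 and 23.1 CPM in the Kdm5[140]-labelled libraries, log2 fold change −1.25, edgeR FDR = 6.82e-05), CG14482 (UQCR-6.4, log2 fold change −0.57, edgeR FDR = 0.00188) and CG7580 (UQCR-Q, log2 fold change −0.45, edgeR FDR = 0.00343), beside 0.07 for mt:Cyt-b. Of the 4 nuclear subunits of complex II, which has no mitochondrial gene, edgeR called none, and the median log2 fold change was −0.08. DESeq2 called 1, CG10219 (SdhD), lower (93.1, 113, 109 and 114 CPM in wild type against 69.1, 93.1, 86.9 and 75.8 CPM in the Kdm5[140]-labelled libraries, DESeq2 log2 fold change −0.40, adjusted p = 0.00320, edgeR FDR = 0.0159). With 1 library left out, the 33 lower subunits became 15 to 38, and fell below 22 without wild-type replicate 2 (15) or 3 (15) or Kdm5[140]-labelled replicate 1 (16), 2 (18) or 4 (16). Among the named subunits, the call of CG12859 held in 2 of these 8 fits (FDR up to 0.0202) and was lost with library totals (FDR = 0.0241) and with the replicate number as a block (FDR = 0.0125), by edgeR. The edgeR call of CG7580 held in 3 (FDR up to 0.0135) and that of CoVIb in 4 (FDR up to 0.0132), while those of the other 9 held in all 8. Of these 9, the call of CG14482 was narrowly lost with library totals (edgeR FDR = 0.01001). CG3621, CG12859, ox and CG14482 each share bases with a gene on the opposite strand and CoVIb with one on its own strand, and their reads cannot be told apart from those of the neighbour where the strand setting is not given.

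The ratio between the genomes was then measured within each library. Summed mt:CoI, mt:CoII and mt:CoIII over the summed nuclear subunits of complex IV gave 9.20, 6.97, 7.41 and 6.49 in wild-type replicates 1 to 4 and 9.50, 10.01, 11.6 and 8.92 in Kdm5[140]-labelled replicates 1 to 4. Wild-type replicate 1 reached into the upper range, so the genotypes overlapped, with 7.52 ± 1.18 and 10.01 ± 1.15 (SD, n = 4 each). The same ratio rested on overlapping libraries in complex I (0.765 to 1.17 and 1.01 to 1.46), complex III (1.67 to 2.56 and 2.20 to 2.85) and complex V (0.115 to 0.181 and 0.162 to 0.226). The difference itself was tested gene by gene in the fit scaled to the mitochondrial mRNA total. All 61 nuclear subunits stayed negative relative to the mitochondrial mRNAs, with a median log2 fold change of −0.35. Only 3, ox, sun and CG3321, passed an FDR under 0.01 (2.79% of all tested genes were lower). At an FDR under 0.05, 9 were lower and 0 higher. Of all tested genes, 10.6% passed that FDR in either direction. The share of lower genes alone was not computed, so this percentage is not a like background for the 9. Scaling to the mitochondrial mRNAs also brings their spread between libraries into every gene.

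Genes that copy, transcribe and process the mitochondrial genome were called at rates that these short lists cannot set apart from the 9.62% lower and 7.91% higher of all tested genes. Of 5 matched genes of mitochondrial DNA maintenance, 3 were tested, of which 1 was higher and 0 lower at an edgeR FDR under 0.01. It was mtDNA-helicase, which unwinds mitochondrial DNA for replication, with 9.11, 11.5, 11.6 and 10.04 CPM in wild type against 16.1, 17.22, 17.6 and 17.6 CPM in the Kdm5[140]-labelled libraries (log2 fold change 0.70, edgeR FDR = 0.00116). tam, the catalytic subunit of the mitochondrial DNA polymerase, had 17.9, 20.7, 21.995 and 24.0 CPM in wild type against 19.2, 18.4, 14.4 and 15.1 CPM in the Kdm5[140]-labelled libraries, overlapping (log2 fold change −0.34, edgeR FDR = 0.0685). TFAM, which packages mitochondrial DNA and takes part in starting its transcription, had 74.8, 79.7, 78.0 and 75.5 CPM in wild type against 67.8, 69.5, 73.0 and 61.5 CPM in the Kdm5[140]-labelled libraries, lower in all 4 of the latter but not called (log2 fold change −0.18, edgeR FDR = 0.0613).

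None of the 6 tested transcription genes was called, and all 6 had negative log2 fold changes. mtRNApol, the mitochondrial RNA polymerase, had 20.8, 24.5, 22.9 and 23.8 CPM in wild type against 21.8, 23.2, 20.8 and 22.7 CPM in the Kdm5[140]-labelled libraries (log2 fold change −0.06, edgeR FDR = 0.625). mtTFB2, a transcription factor of the mitochondrial promoters, had 13.5, 11.7, 13.6 and 10.8 CPM in wild type against 8.28, 9.99, 9.61 and 9.76 CPM in the Kdm5[140]-labelled libraries, lower without overlap (log2 fold change −0.40, edgeR FDR = 0.0341). Of the 9 tested genes of RNA processing and stability, 1 was lower and 0 higher. It was CG11337 (PNPase), a ribonuclease, with 30.5, 32.1, 30.3 and 29.7 CPM in wild type against 24.1, 22.8, 25.2 and 23.6 CPM in the Kdm5[140]-labelled libraries (log2 fold change −0.36, edgeR FDR = 0.00298). Its call held in 4 of 8 fits with 1 library left out (edgeR FDR up to 0.0122) and was lost with library totals (edgeR FDR = 0.0116). bsf, which stabilizes mitochondrial mRNAs, had 111 ± 6.98 to 108 ± 4.33 CPM from wild type to the Kdm5[140]-labelled libraries (log2 fold change −0.04, edgeR FDR = 0.669). mtTFB2, mtDNA-helicase and CG11337 share bases with genes on the opposite strand.

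The genes whose levels followed the mitochondrial mRNAs most closely were ranked by Pearson's r between log2 CPM and the log2 of the summed mitochondrial mRNAs, each centred on its genotype mean, over the same 8 libraries. Among 6483 nuclear genes averaging 10 CPM or more, the first 5 were Rho1 (r = 0.990), Ef1alpha48D (0.985), OstStt3 (0.984), Clic (0.979) and CG5941 (0.977), against a median of 0.18. With so many genes and 8 points that share libraries, depth and scaling, such values are a description of these libraries. Ef1alpha48D, a translation elongation factor, had 15229.7, 14230, 14876 and 13392 CPM in wild type against 11309, 12257, 13325 and 11547 CPM in the Kdm5[140]-labelled libraries, with replicates 1 and 3 highest in their genotypes, as for the mitochondrial mRNAs. The 5 differed in their genotype difference, from a log2 fold change of −0.35 for OstStt3 (edgeR FDR = 0.00338) to 1.24 for CG5941 (edgeR FDR = 5.84e-06).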

How the data were processed

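Ring gland mRNA-seq libraries were poly(A)-selected and sequenced by the authors as paired 150-base reads. Per the submitters' processing notes, reads were mapped to dm6 with HISAT2 (v2.0.5), assembled with StringTie (v1.3.3b) and counted per gene with featureCounts (v1.5.0-p3). Strand and multi-gene settings are not given in the sources used here. The deposited table holds whole-number counts per library, which were analysed here as deposited, and FPKM values, which were not used. It also holds the authors' own DESeq2 (v1.20.0) comparison, as normalized mean signal per genotype, log2 fold changes and p-values deposited by the authors, none of which was used. Counts were tested with edgeR 4.0.16 (R 4.3.3), using filterByExpr, TMM factors and the robust quasi-likelihood test on genotype, with Benjamini-Hochberg adjustment over all 9317 tested genes and an FDR under 0.01. DESeq2 1.42.0, limma-voom 3.58.1, other scalings and filters, the replicate number as a block and each library left out were alternatives, and the fits were tested on simulated data. Floors are 3 counts, and intervals on shares are 95% Wilson intervals that cover counting error only. Levels between genes were compared per kb of the deposited gene length. Replicates of a genotype differed by more than sampling noise (chi-square per degree of freedom 11.2 to 62.3 over pairs), so each counted once, and since nothing says that the pools came from separate cultures, p-values measure only the spread between these pools, which may be technical.

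The mitochondrial genes, pathway lists and markers were chosen with earlier results of these data known. Named were all mitochondrial mRNA and rRNA genes, the 5 highest tRNA genes, 6 regulators, lid, the 3 called genes of largest log2 fold change in each pathway list, and the 5 genes most like the mitochondrial mRNAs. CG10219, spok, dib, sro and elav were chosen after their values were seen. All pathway symbols matched, and 6 of 7 prothoracic gland markers. Positions are the deposited table's. Of the 37 genes, 17 have the same coordinates in Ensembl release 115 (BDGP6.54) and the others differ by up to 7 bases, so the 2 were not mixed. No sequence is shown.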

Additional observations from a re-analysis of the deposited data

Results flagged for a closer look

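Among 98 groups of 4 libraries examined (levels of the tested and named genes, shares of the mitochondrial mRNAs and of all mitochondrial counts), 1 group held a library set far from the others by Dixon's criterion, which chance alone exceeds in about 1 of 20 groups. It was ox, a nuclear-encoded subunit of complex III, at 59.2 CPM in wild-type replicate 3, beside 43.7 to 46.4 CPM in the other wild-type libraries. No mitochondrial genome gene had such a library.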

How the results depend on the processing

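No mitochondrial genome gene was called at an FDR under 0.01 under any alternative run. Of 286 alternative values of the 16 tested genes over 18 settings, 264 kept their direction and 22 of 8 genes changed it. Scaled by library totals only, mt:CoI was at 0.0626, mt:ND3 at 0.0766, mt:lrRNA at 0.0147, mtRNApol at 0.0430 and bsf at 0.0578 on the log2 scale, 617 genes were lower and 1091 higher (63.9% higher, against 45.1% with TMM), and the lower pathway genes numbered 21, all of them subunits of complexes I, III, IV and V. With a mean of at least 5 CPM as the filter, mt:CoI was at 0.00311 and mt:ND3 at 0.0193. Scaled to the mitochondrial mRNAs, which was chosen after seeing the data, mt:ND3 was at 0.000740, 260 genes were lower and 286 higher, and of the pathway genes 3 were lower, all such subunits, and 0 higher. DESeq2 called 1276 lower and 1151 higher, and an FDR under 0.05 gave 1536 and 1339. Without division by length, mt:CoIII moved to place 3. With 1 library left out, all genes called ran from 537 to 957 lower and 423 to 870 higher, pathway genes lower from 15 to 40, subunits lower from 15 to 38, the median over the mitochondrial mRNAs and rRNAs from −0.12 to 0.11, and the share of all counts on the mitochondrial genome, Kdm5[140]-labelled minus wild type, from −0.08 to 0.34 percentage points. The log2 fold change then ran from −0.14 to 0.0351 for mt:CoI, −0.0687 to 0.21 for mt:CoII, −0.0476 to 0.15 for mt:Cyt-b, −0.0550 to 0.22 for mt:ND1, −0.16 to 0.0956 for mt:ND3, −0.12 to 0.11 for mt:ND4, −0.0754 to 0.16 for mt:ND5 and −0.0749 to 0.00409 for bsf. The cause of these moves was not tested, apart from the smaller number of samples in the fits without a library. The replicate numbers are not stated to mark shared days or animals, and same-numbered libraries deviated together with r = 0.07, 0.12, 0.19 and −0.12, only replicate 3 matching its own number best, so they were not taken as pairs. With the replicate block, 906 genes were lower and 711 higher, no mitochondrial gene was called, and mt:srRNA stood at 0.81 on the log2 scale (edgeR FDR = 0.0149). Low counts limit the tRNAs, mt:ND6 and mt:ATPase8, for which no genotype difference was detectable in these counts. The parts of depth, poly(A) selection and the counting of shared reads in these low counts were not tested.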
